A study of Mus musculus with 6 samples.

Results

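The genes described here are those of the neurofilaments and the axonal cytoskeleton: Nefl, Nefm, Nefh, Ina, Prph, Stmn2, Uchl1, Sncg, Gap43 and Tubb3. They were taken by name, as every probe set whose platform annotation gave exactly 1 of these symbols. That yielded 16 probe sets of 10 genes, among 20380 probe sets of 12393 genes with a single symbol. All 16 were bright enough to be tested, so no gene was lost to the filter on dim signals.

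The arrays measured total RNA of the cochlea, the part of the inner ear that senses sound, in male DBA/2J mice. This inbred strain loses its hearing early, and the study asked which transcripts change with that loss. The older group was 36 weeks of age (n = 3 samples) and the younger group 7 weeks (n = 3 samples), each sample on its own single-colour Affymetrix array. All animals had the same strain and sex, and the labels name no treatment. Nothing in the labels says whether a sample was 1 mouse or a pool, or 1 ear or both, so p-values measure only the spread between these samples. The design text also says that no replicates were done. The labels do not say how the cochlea was dissected.

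The signals are linear, in arbitrary units, with array medians of 766.3 to 859.4. The cochlear markers Coch and Otos stood far above those medians in both groups. Both were much lower at 36 weeks, at means of 21556 and 13801, than at 7 weeks, at 82144 and 73912. The reason for that fall was not tested. Of 10 hair cell markers 6 were tested, 3 lay below the filter and 1 was not analysed here. On all 6 arrays the number of samples limits the precision. Differences below are 36 weeks minus 7 weeks on the scale of log2(signal + 50), given with a standard error (SE), for 3 arrays per age. They were tested with limma over 13575 probe sets, and the threshold was a Benjamini-Hochberg adjusted p of 0.05. A fold is a ratio of mean signals. In bulk tissue, fewer cells of a type and less RNA per cell cannot be told apart.

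Neurofilaments are the main intermediate filaments of axons and set the calibre of large fibres. They are built from light, medium and heavy subunits (Nefl, Nefm, Nefh), with alpha-internexin (Ina) joining them mainly in central neurons and peripherin (Prph) mainly in peripheral ones. In the cochlea, peripherin is a known marker of the thin, unmyelinated type II spiral ganglion neurons that contact outer hair cells. Microtubules run beside the filaments. Tubb3 is the beta-tubulin of neurons, Stmn2 a protein that binds free tubulin and loosens microtubules in growing axons, and Gap43 the growth-cone protein of extending axons. Uchl1, a ubiquitin hydrolase, and Sncg, gamma-synuclein, are abundant soluble proteins of axons.

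Counted by their brightest probe sets, 7 of the 10 genes rose at 36 weeks (Nefl, Prph, Stmn2, Uchl1, Sncg, Gap43 and Tubb3), 2 fell (Nefh and Ina), and Nefm did not pass the test. Over all 8541 tested genes, 17.1% rose and 17.2% fell. The median log2 difference was 0.96 for the 10 genes and 0.02 for all tested genes. By probe set, 9 of 16 rose and 3 fell, beside 16.2% that rose and 17.3% that fell over the whole array. The signals of the ages did not overlap for 12 of the 16 probe sets, against 47.3% of all tested probe sets. Both the 9 and the 12 include the dim Prph probe set 1420256_x_at. It averaged 433.8 at 7 weeks, below the filter level of 560.7, and 936.9 at 36 weeks, so it was tested through the older arrays. With the 60th percentile filter 8 probe sets rose.

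**Figure D1:**
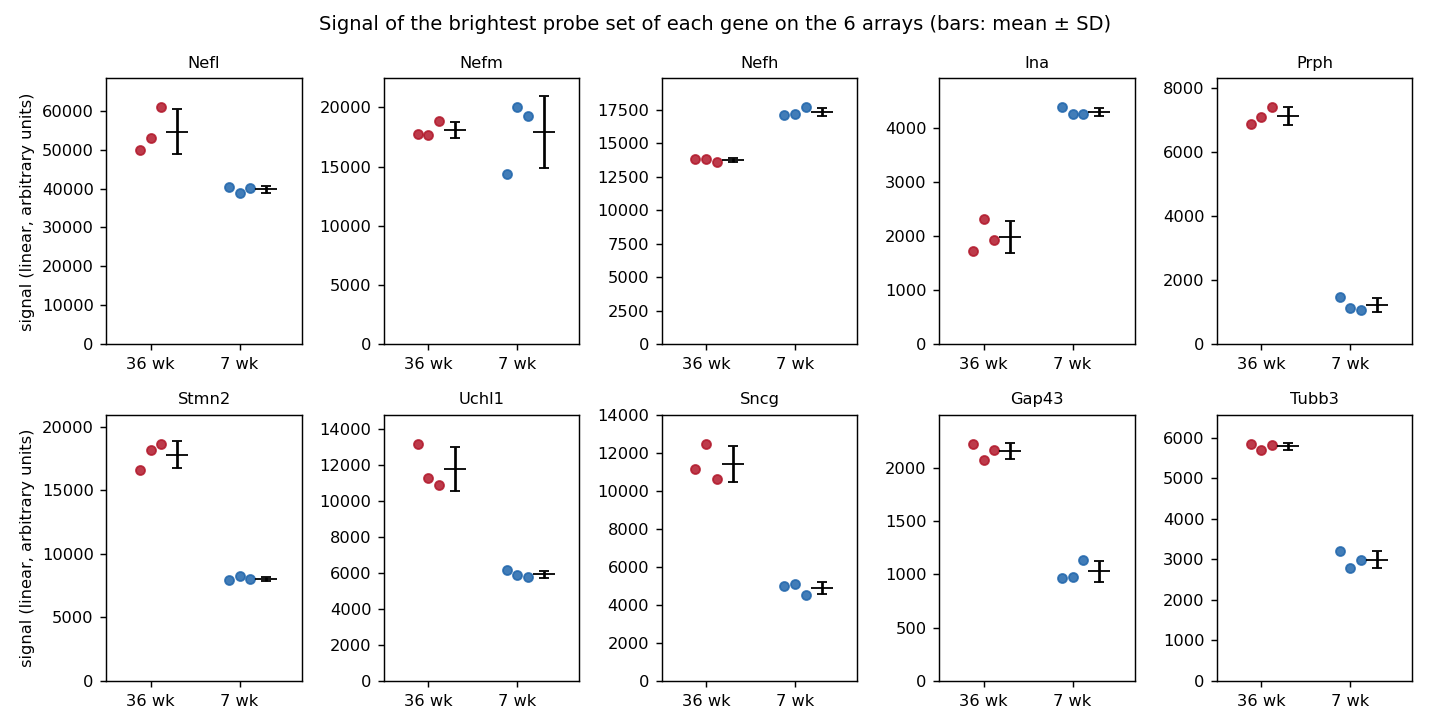
Linear signal (arbitrary units, axes from 0) of the brightest probe set of each gene on the 3 arrays of 36 weeks (red, left) and the 3 of 7 weeks (blue, right), with mean and SD beside the points. The ages are separate in every panel except Nefm. Nefh and Ina lie lower at 36 weeks and the other 7 lie higher.

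The neurofilament triplet did not move as one. Nefl, the light subunit that every neurofilament needs, had signals of 49876, 53020 and 60961 at 36 weeks, against 40342, 38815 and 40141 at 7 weeks. All old arrays were above all young ones, and the old arrays spread more widely (SD 5713 at 36 weeks and 829.98 at 7 weeks). The log2 difference of Nefl was 0.45 ± 0.08 (SE, adjusted p = 0.00102), a fold of 1.37.

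Nefm, the medium subunit, read 17746, 17655 and 18861 at 36 weeks, against 14411, 20042 and 19276 at 7 weeks. The ages overlapped, because 1 young array was lower and the other 2 were higher than every old array. The log2 difference was 0.03 ± 0.11, with a 95% confidence interval of -0.22 to 0.27 and an adjusted p of 0.871. Its sign turned with centring on the array median (-0.07), without replicate 1 of 7 weeks (-0.12) and without replicate 3 of 36 weeks (-0.00196). With quantile normalization the difference was 0.21 (adjusted p = 0.124). Nefl and Nefm are next to each other on chromosome 14 in the RefSeq annotation of GRCm38.p6.

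Nefh, the heavy subunit of large myelinated axons, read 13829, 13794 and 13570.2 at 36 weeks, against 17105, 17151 and 17700.3 at 7 weeks. Every old array was lower than every young one, by a ratio between 0.77 and 0.81 in the 9 pairs of an old and a young array. Its log2 difference was -0.33 ± 0.06 (adjusted p = 0.00192). With quantile normalization Nefh fell by 0.19 (adjusted p = 0.0442), so the size of its change depends on the scaling.

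Ina and Prph, the subunits that join the triplet in central and in peripheral neurons, went opposite ways. The brightest Ina probe set (1448991_a_at) read 1715, 2305 and 1923 at 36 weeks, against 4386, 4249.5 and 4262 at 7 weeks. All old arrays were at most 0.54 times any young one. The log2 difference was -1.11 ± 0.12 (adjusted p = 5.42e-05), the largest fall of the 10 genes.

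The other Ina probe sets pointed the same way with smaller differences. Probe set 1448992_at averaged 1593 ± 98.2 at 36 weeks and 2609 ± 183.9 at 7 weeks (SD, n = 3 each), and fell by 0.69 (adjusted p = 0.00123). Probe set 1418178_at read 1750.3, 1885 and 1874 at 36 weeks, against 2578, 1817 and 2444.5 at 7 weeks. Here 1 young array lay among the old ones, and the log2 difference of -0.29 ± 0.15 did not pass (adjusted p = 0.155). Without that array, replicate 2 of 7 weeks, the difference was -0.44 and passed (adjusted p = 0.0317).

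Prph had the largest difference of the 10 genes. Its brightest probe set (1422530_at) read 6883, 7094.5 and 7416 at 36 weeks, against 1475, 1125 and 1075 at 7 weeks. The lowest old array was 4.67 times the highest young one. The log2 difference was 2.51 ± 0.13 (adjusted p = 1.76e-07), above that of 99.4% of the tested probe sets.

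The other 3 probe sets annotated to Prph were dim and carry no accession in the platform annotation. Probe set 1420256_x_at, of a type that may cross-hybridise, read 1011, 704.7 and 1095 at 36 weeks, against 357.9, 492.8 and 450.8 at 7 weeks. It rose by 1.02 ± 0.25 (adjusted p = 0.0105), and without replicate 3 of 36 weeks by 0.90 (adjusted p = 0.0537). Probe sets 1449796_at and 1449797_x_at overlapped between the ages and did not pass, with log2 differences of 0.55 and 0.11. Without replicate 3 of 7 weeks, 1449796_at passed with 0.76 (adjusted p = 0.0474). The difference of 1449797_x_at turned to -0.03 without replicate 1 of 7 weeks. The size of the Prph rise therefore rests on 1 probe set.

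**Figure D2:**
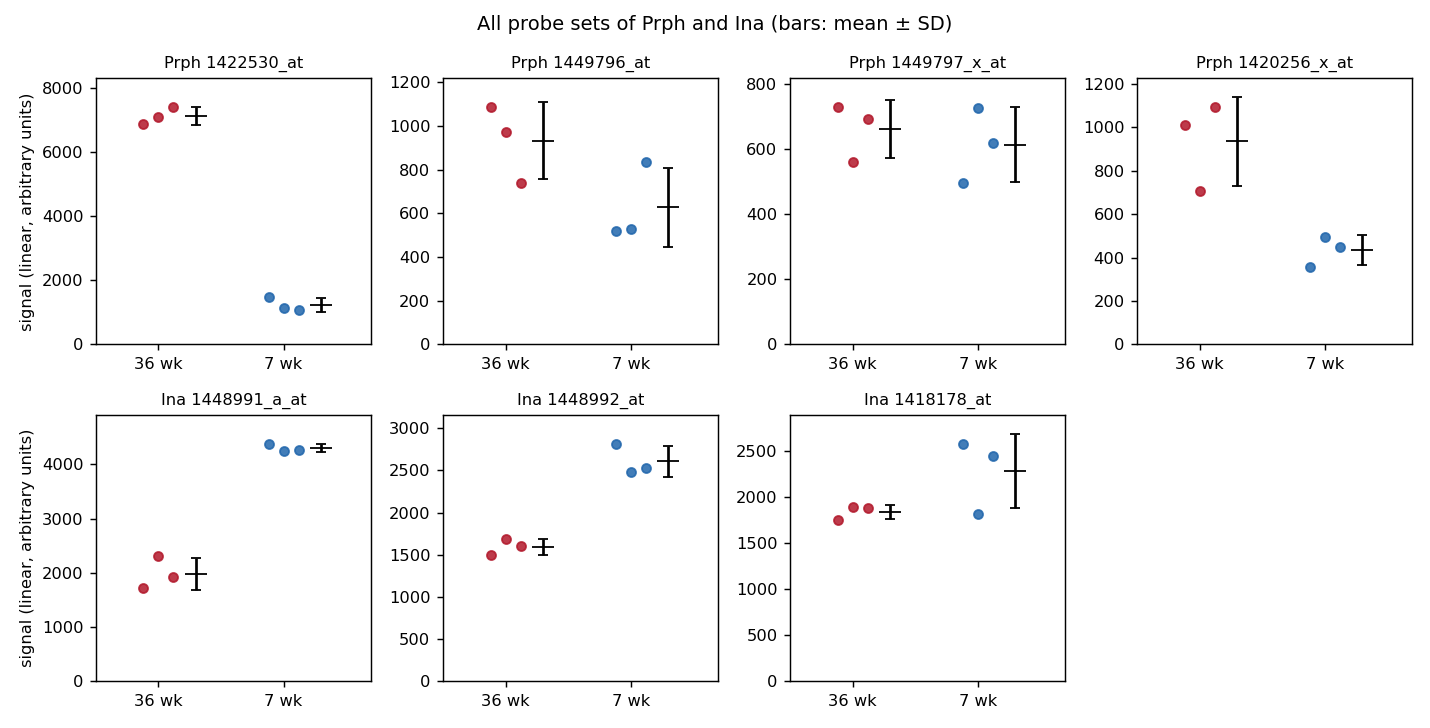
Linear signal (arbitrary units, axes from 0) of the 4 probe sets of Prph and the 3 of Ina on each array of 36 weeks (red, left) and 7 weeks (blue, right), with mean and SD. The Prph probe set at about 7131 at 36 weeks separates the ages widely, and 2 of the dim Prph probe sets overlap. For Ina, 1 of the 3 probe sets has a young array among the old ones.

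The sequences around the transcription start of Prph and Ina are shown because these are the members with the largest rise and the largest fall. They run 5′ to 3′ from 250 bases before to 50 bases after the start, from RefSeq on GRCm38.p6, and both genes lie on the plus strand. Capitals mark matches on either strand to TATAAA, the TATA box, to GGGCGG, the GC box, and to CAGNTG, an E-box. TGACGTCA, the cyclic AMP response element, was also searched. No motif in the search overlapped another.
Prph, chr15:99054924-99055223: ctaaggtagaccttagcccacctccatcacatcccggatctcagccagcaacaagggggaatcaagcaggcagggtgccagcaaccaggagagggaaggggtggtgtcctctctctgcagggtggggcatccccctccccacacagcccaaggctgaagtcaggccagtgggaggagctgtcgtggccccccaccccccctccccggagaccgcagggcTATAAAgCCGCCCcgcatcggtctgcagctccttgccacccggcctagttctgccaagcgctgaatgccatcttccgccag
Ina, chr19:47014431-47014730: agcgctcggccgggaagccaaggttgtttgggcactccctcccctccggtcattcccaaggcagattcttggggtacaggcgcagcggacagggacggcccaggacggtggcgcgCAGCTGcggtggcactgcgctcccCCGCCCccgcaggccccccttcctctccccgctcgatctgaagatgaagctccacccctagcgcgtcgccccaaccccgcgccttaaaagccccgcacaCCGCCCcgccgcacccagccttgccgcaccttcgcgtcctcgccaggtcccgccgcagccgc

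The Prph window had TATAAA at position -31 relative to the start and a GC box at -24. The Ina window had GC boxes at -111 and -12 and an E-box at -135, and these letters gave no TATAAA match there. Windows were also searched for Uchl1, Sncg and Tubb3. Windows of Nefl, Nefm, Nefh, Stmn2 and Gap43 were not used here. Of the 5 windows, 1 held TATAAA, 4 held GGGCGG, 2 held CAGNTG and 0 held TGACGTCA. Of all 32851 windows of the same length, 13.6% held TATAAA, 35.7% GGGCGG, 51.4% CAGNTG and 1.79% TGACGTCA. These matches describe letters only.

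The microtubule and growth-cone members all rose. Tubb3 read 5859, 5690.1 and 5829 at 36 weeks, against 3206, 2779 and 2984 at 7 weeks. Its old arrays lay close together (SD 90.2 at 36 weeks and 213.6 at 7 weeks), and no arrays overlapped between ages. The log2 difference was 0.94 ± 0.09 (adjusted p = 2.20e-05), a fold of 1.94.

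Stmn2 was measured by 2 probe sets with similar differences. Probe set 1423280_at read 16615, 18134 and 18670.5 at 36 weeks, against 7925, 8220.4 and 8000.1 at 7 weeks. Probe set 1423281_at read 10555, 10018 and 10826 at 36 weeks, against 4506, 4425 and 4353 at 7 weeks. Each old array was at least 2.02 times each young one with either probe set. The log2 differences were 1.14 ± 0.07 and 1.23 ± 0.08, with adjusted p-values of 8.35e-07 and 7.03e-07.

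Gap43 read 2225.5, 2072 and 2168 at 36 weeks, against 966.5, 977.1 and 1138 at 7 weeks. It rose by 1.04 ± 0.14 (adjusted p = 0.000196), a fold of 2.10, with every old array above every young one.

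The transcripts of the soluble axonal proteins rose by about as much. Uchl1 read 13173, 11239 and 10879 at 36 weeks, against 6135.5, 5879.9 and 5749 at 7 weeks, a log2 difference of 0.98 ± 0.09 (adjusted p = 1.26e-05). Sncg read 11179, 12500.1 and 10642 at 36 weeks, against 5006, 5128.5 and 4514 at 7 weeks, a log2 difference of 1.22 ± 0.09 (adjusted p = 2.81e-06). For both, the old and young arrays were separate, with folds of 1.99 and 2.34. The 95% confidence intervals of Tubb3, Stmn2, Gap43, Uchl1 and Sncg overlapped one another and spanned 0.74 to 1.42.

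**Figure D3:**
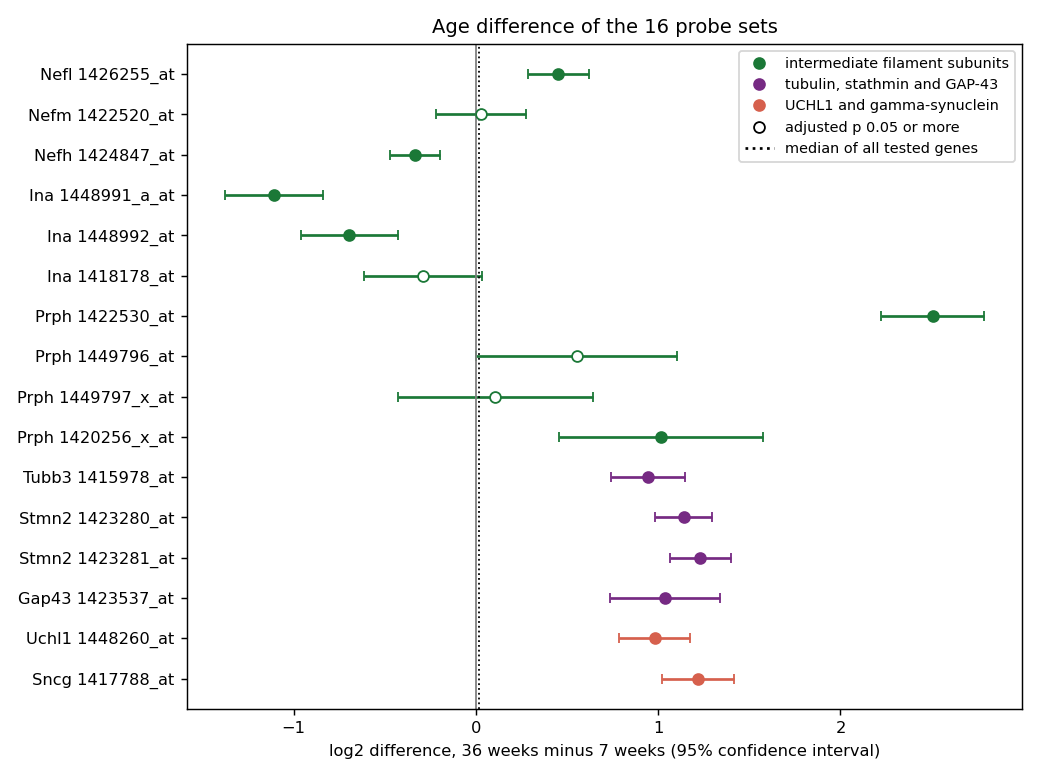
Log2 difference, 36 weeks minus 7 weeks, with its 95% confidence interval for each of the 16 probe sets, coloured by role. Open points did not pass the test, and the dotted line is the median of all tested genes, 0.02. Probe sets outside the intermediate filaments cluster between 0.94 and 1.23, while those of filament subunits run between -1.11 and 2.51.

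The submitters compared each old with each young array, giving 9 pairs. With at least a 1.5-fold difference in all 9 pairs asked, a rule of size with no test, 6 of the 10 genes were higher and 1 was lower. The 6 were Prph, Stmn2, Uchl1, Sncg, Gap43 and Tubb3, and the 1 was Ina. By that rule 5.74% of all tested genes were higher and 5.06% lower.

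Ratios within an array compared 3 pairs of members and do not depend on how an array was scaled as a whole. The level of such a ratio has no meaning between probe sets, only its difference between ages. The log2 ratio of Prph over Nefl was -2.85, -2.89 and -3.03 at 36 weeks, against -4.73, -5.05 and -5.16 at 7 weeks. It was higher by 2.05 in the old arrays, with no overlap. The ratio of Ina over Nefl was -4.82, -4.49 and -4.95 at 36 weeks, against -3.19, -3.18 and -3.22 at 7 weeks, a difference of -1.56, again with no overlap. An exact two-sided permutation test gave p = 0.1 for each, 0.15 after Benjamini-Hochberg adjustment over the 3 pairs, and 0.1 is the smallest p that 3 arrays against 3 allow.

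The ratio of Gap43 over Stmn2 was -2.87, -3.10 and -3.08 at 36 weeks, against -2.97, -3.01 and -2.76 at 7 weeks. The ages overlapped, and the difference of -0.10 was within the spread of 0.12 at 36 weeks and 0.13 at 7 weeks (SD, exact permutation p = 0.5). With quantile normalization this difference was -0.28, with an exact permutation p of 0.1.

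**Figure D4:**
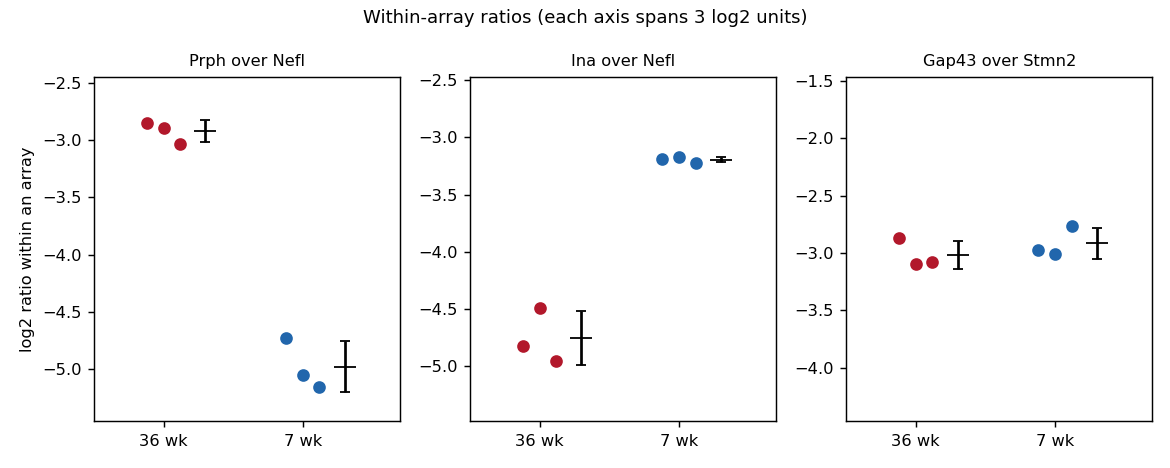
Log2 ratio of the brightest probe sets of 3 pairs of members within each array, 36 weeks (red, left) and 7 weeks (blue, right), with mean and SD. Each vertical axis spans 3 log2 units. Prph over Nefl lies higher and Ina over Nefl lower at 36 weeks, while Gap43 over Stmn2 overlaps.

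Genes whose profiles over the 6 arrays were nearest to those of 3 members were found by the root-mean-square difference of centred log2 signals among 8531 other genes. The nearest to Nefl were Zfp37, Cks1b and Cd2bp2, at 0.03, 0.05 and 0.05, with age differences of 0.40, 0.36 and 0.44. The nearest to Prph were Arhgdib, Hmgb2 and Pigr, at 0.12, 0.13 and 0.16, with age differences of 2.45, 2.27 and 2.71. The nearest to Stmn2 were Plbd1, Rhog and Zbtb18, at 0.04, 0.06 and 0.06, with age differences of 1.19, 1.13 and 1.08. Like age differences follow from this choice of genes, because the distance includes the difference between the ages.

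Other genes of the axonal pathway were counted from 6 lists of 81 genes, of which 65 were tested. Of these 65 genes 29 rose, 7 fell and 29 did not pass, with a median log2 difference of 0.28. The array medians were themselves higher by 0.10 on the log2 scale at 36 weeks, and relative to them 19 of the 65 rose and 9 fell. On that scale the 10 genes kept their count of 7 higher and 2 lower, with Nefl at 0.35, Nefh at -0.44, Ina at -1.21 and Prph at 2.40. Over the whole array the same centring gave 1675 higher and 3052 lower calls (35.4% higher), beside 2203 and 2355 (48.3% higher) with the deposited scaling.

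Genes listed for filament assembly, linkage and turnover differed by less than most of the 10 genes. In this list 4 of 9 rose and 1 fell (median 0.26). It includes Vim, Gfap and Des, intermediate filaments that are not neurofilament subunits. Gfap is counted again below as a marker of central glia. Plec, the linker plectin, rose by 0.45 ± 0.10, Vim, vimentin, by 0.36 ± 0.10, and Cdk5r1, the activator of a kinase of neurofilament tails, by 0.63 ± 0.20. Dst, dystonin, which links filaments to other cytoskeleton, fell by 0.31 ± 0.08. These counts were small and unsteady. With median centring 1 rose and 2 fell, and with quantile normalization 3 rose and 0 fell. Without replicate 2 of 36 weeks 1 rose, and without replicate 3 of 36 weeks or replicate 2 of 7 weeks 2 rose. Without replicate 3 of 36 weeks or replicate 1 of 7 weeks 2 fell.

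Among tubulins, microtubule-binding proteins and stathmins 8 of 19 rose and 1 fell (median 0.31). Tubb4a, a beta-tubulin abundant in brain, rose by 1.60 ± 0.10, to a mean signal of 13210 ± 1246 at 36 weeks, against 4331 ± 526.1 at 7 weeks (SD, n = 3 each). Mapt, the axonal protein tau, rose by 0.89 ± 0.10 and Tubb5, a widely expressed beta-tubulin, by 0.65 ± 0.08. Stmn4, a relative of Stmn2, fell by 1.30 ± 0.30, to a dim 534.1 at 36 weeks, against 1315 at 7 weeks. Its mean at 36 weeks was below the filter level of 560.7, so it was tested through the younger arrays. With the 60th percentile filter 0 genes of this list fell. Without replicate 3 of 7 weeks 2 genes of this list fell. Stmn1, another stathmin, rose by 0.54 ± 0.07 (adjusted p = 0.000109). Stmn3, a further neuronal stathmin, differed by -0.14 and did not pass, as measured by a probe set that may cross-hybridise.

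Of 15 motor and adaptor genes of axonal transport 7 rose and 1 fell (median 0.24). Kif3b, a kinesin motor, rose by 0.85 ± 0.12, Mapk8ip1, a kinesin cargo adaptor, by 0.86 ± 0.16 and Klc1, a kinesin light chain, by 0.42 ± 0.08. Dync1i1, a neuronal intermediate chain of dynein, fell by 0.81 ± 0.16. Without replicate 2 of 36 weeks 4 rose, and without replicate 2 of 7 weeks 2 fell. With median centring 5 rose and 2 fell, the second being Kif5b, a kinesin heavy chain (-0.34, adjusted p = 0.0173).

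Of 13 growth-cone and axon guidance genes 7 rose and 1 fell (median 0.43). L1cam, an adhesion molecule of axons, rose by 1.24 ± 0.09, Crmp1, a mediator of growth-cone collapse, by 1.17 ± 0.14 and Ncam1, a neural adhesion molecule, by 1.14 ± 0.22. Marcksl1, an actin-binding substrate of protein kinase C, fell by 0.95 ± 0.11 as measured by a probe set that may cross-hybridise.

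The spectrin and ankyrin genes of the axonal membrane skeleton split evenly, with 2 of 6 higher and 2 lower (median 0.09). Epb41l3 and Add1, which tie spectrin to membrane and actin, rose by 0.38 ± 0.07 and 0.33 ± 0.08. Ank3, ankyrin-G of the axon initial segment and nodes, fell by 0.57 ± 0.14, and Sptbn1, a beta-spectrin, by 0.30 ± 0.07. With quantile normalization 1 of them fell, and with median centring 1 rose. The last list held 3 tested genes, chosen to go with Sncg and Uchl1 but not all of their families. Sncb, beta-synuclein, rose by 0.57 ± 0.12. Park7, a protein of the oxidative stress response, fell by 0.33 ± 0.07, and 1 did not pass.

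Markers of the neurons and other cells that the dissected tissue can hold moved on the same arrays. Of 10 general neuron markers 7 rose and 0 fell, and their summed signal ranged over 62923 to 64977 at 36 weeks and 49333 to 51746 at 7 weeks. Rbfox3, a nuclear protein of mature neurons, rose by 1.54 ± 0.23, Rtn1 by 0.87 ± 0.10 and Eno2, neuronal enolase, by 0.49 ± 0.07. Rbfox3 averaged 432.0 at 7 weeks, below the filter level of 560.7, and 1333 at 36 weeks. Elavl4 and Snap25 had differences of -0.23 and -0.06 and did not pass. With median centring 7 rose and 1 fell, which was Elavl4 (-0.33, adjusted p = 0.0299).

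Of 6 tested markers of spiral and vestibular ganglion neurons, 2 of which are Tubb3 and Nefh themselves, 2 rose and 3 fell. Their summed signal ranged over 33073 to 36113 at 36 weeks and 47890 to 50247 at 7 weeks. Calb2 alone carried the lower sum, at a mean of 11956 at 36 weeks and 26266 at 7 weeks. The other 5 summed to 22292 to 22597.5 at 36 weeks and 22250.2 to 23158 at 7 weeks, which overlap. Most of that sum was Nefh, at means of 13731 at 36 weeks and 17319 at 7 weeks, and Tubb3, at 5793 and 2990. Tubb3 is also 1 of the 2 that rose, and Nefh 1 of the 3 that fell. The overlap therefore says little about these neurons beyond those members. Ntrk3, the neurotrophin-3 receptor of these neurons, rose by 0.98 ± 0.21, while Calb2, calretinin, fell by 1.14 ± 0.09 and Epha4, a guidance receptor, by 0.66 ± 0.21. Gata3 and Prox1, defining transcription factors, lay below the filter.

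Most tested markers of dorsal root or trigeminal type sensory neurons, and all tested ones of cerebellar neurons, were higher. Of 4 tested sensory neuron markers 3 rose and 0 fell, with summed signals of 13895 to 14759 at 36 weeks and 6361 to 7303.5 at 7 weeks. Avil, advillin, rose by 2.70 ± 0.15, Isl2 by 0.99 ± 0.22 and Tac1, the precursor of substance P, by 0.98 ± 0.16, whereas Scn10a, Scn9a and P2rx3 lay below the filter. Isl1, the fourth, had a difference of -0.29 (adjusted p = 0.0731), and fell with median centring (-0.39, adjusted p = 0.0253). Of 7 tested cerebellar neuron markers 7 rose, with summed signals of 51605 to 56888 at 36 weeks and 16075 to 17990.3 at 7 weeks and a median of 2.08. Cbln1, Gabra6 and Neurod1 rose by 2.54, 2.24 and 2.17. The part of these neurons in the rises of the 7 axonal genes was not tested.

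No autonomic marker passed the test upward. Of 5 tested 0 rose and 1 fell, with summed signals of 5261 to 6522 at 36 weeks and 9802 to 10577 at 7 weeks. Vip alone carried the lower sum, since the other 4 summed to 4598 to 5838 at 36 weeks and 3849 to 5131.5 at 7 weeks, which overlap. Vip, a neuropeptide of parasympathetic neurons, fell by 2.95 ± 0.13, and Ecel1 differed by 0.43 ± 0.26 without passing.

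Most tested markers of the cells that wrap axons were lower. Mag, the 1 that did not pass, differed by 0.28 (adjusted p = 0.281). Of 8 tested Schwann cell and myelin markers 0 rose and 7 fell, with a median of -0.95 and summed signals of 95856 to 104270 at 36 weeks and 177946 to 187627 at 7 weeks. S100b fell by 1.69 ± 0.09 and Pmp22, of compact peripheral myelin, fell by 1.07 ± 0.06. Ugt8a, which makes myelin galactolipids, averaged 1674 ± 146.7 at 36 weeks and 4838 ± 368.7 at 7 weeks (SD, n = 3 each) and fell (adjusted p = 3.28e-06). Of 7 tested markers of central glia 2 rose and 1 fell, with summed signals of 39643 to 41537 at 36 weeks and 21329 to 21981 at 7 weeks. Aldoc alone carried the higher sum, at a mean of 28792 at 36 weeks and 8662 at 7 weeks. The other 6 summed to 11302 to 12493 at 36 weeks and 12310 to 13541 at 7 weeks, which overlap. Aldoc rose by 1.73 ± 0.06, Gfap rose by 0.45 ± 0.15, and Cldn11, the 1 that fell, fell by 1.69 ± 0.17. Which cells of this tissue gave the Cldn11 signal was not tested. In this list 1 gene rose with quantile normalization or median centring, and 1 without replicate 2 or 3 of either age. With median centring, or without replicate 3 of 36 weeks, 2 fell. With centring the second was Mobp (-0.35, adjusted p = 0.0288).

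Markers of non-neural tissue moved on these arrays too. Of 7 tested anterior pituitary markers 6 rose and 0 fell, led by Gh, Cga and Prl with log2 differences of 4.06, 4.02 and 3.70. The summed signal of the 7 was 91800.0 to 98992 at 36 weeks and 16187 to 20185.5 at 7 weeks. Chgb, a granin shared by endocrine cells and neurons, was among those that rose, by 0.62. All 9 tested granulocyte markers rose and all 10 skeletal muscle markers fell, with medians of 3.87 and -1.66. The granulocyte sum was 676330.0 to 720638 at 36 weeks and 47301.5 to 52918 at 7 weeks, and the muscle sum 109043 to 114775 at 36 weeks and 306437 to 326597 at 7 weeks. Cga averaged 144.2 at 7 weeks. At 36 weeks the hair cell marker Ush1c averaged 395.1 and the muscle marker Pgam2 463.2. These means were all below the filter level of 560.7. These genes were tested through the age where they were brighter. S100a9, Ltf and Mpo rose by 3.74, 3.65 and 3.87, and Tnni2, Mylpf and Acta1 had differences of -1.94, -2.32 and -1.65. Of 6 tested hair cell markers 0 rose and 3 fell, with summed signals of 5429 to 6439.5 at 36 weeks and 8454 to 9318 at 7 weeks. Ush1c, Myo6 and Otof had differences of -2.35, -0.92 and -0.40. The part of any of these tissues in the axonal differences was not tested.

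**Figure D5:**
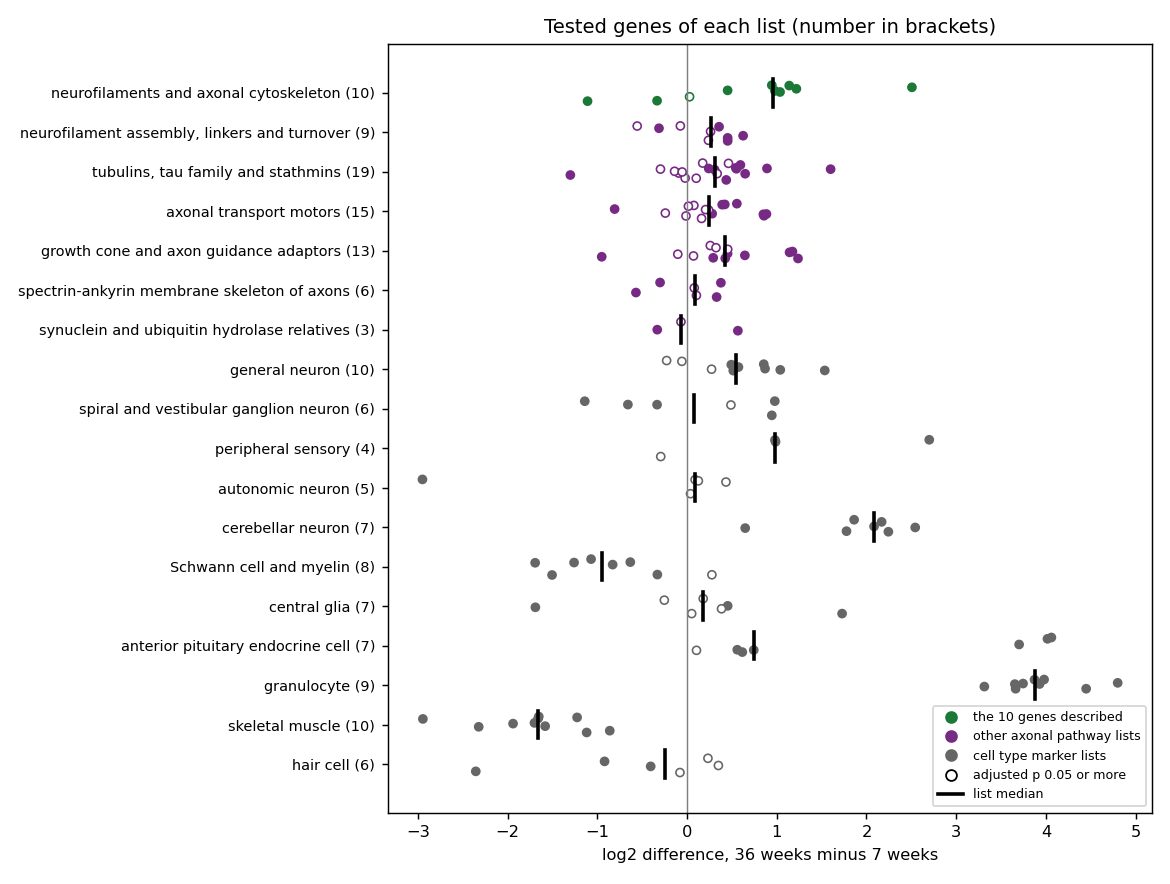
Log2 difference, 36 weeks minus 7 weeks, of each tested gene in the 10 genes described (green), the 6 axonal pathway lists (purple) and the 11 cell type marker lists (grey). Filled points passed the test and black bars are list medians, 0.96 for the 10 genes, 2.08 for cerebellar neuron markers and -0.95 for Schwann cell and myelin markers.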

How the data were processed

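Per the labels' protocols, total RNA was isolated with TRIzol, converted to biotin-labelled cRNA and hybridised to Affymetrix arrays. The deposited values are 1-colour probe-set intensity values on a linear scale. The program that summarised the probes: not given in the sources used here. The values show that the authors' arrays share a trimmed mean (1490.2 to 1493.04 without the lowest and highest 2%).

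Symbols came from the platform annotation, with 20380 of 22626 probe sets naming 1 gene, 691 several and 1555 none. Tests used limma 3.58.1 in R 4.3.3, and figures matplotlib 3.10.9 under Python 3.11.15. The model was lmFit and eBayes with an intensity trend on log2(signal + 50), unpaired and two-sided, over the 13575 probe sets whose mean log2 signal was above the 40th percentile (the mean linear signal, tried first, is an alternative added after seeing the data). A gene was represented by its brightest tested probe set, 8541 in all. The test was tried on simulated data.

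The members and lists were chosen with earlier results of these data known. All members were named, and from each list the 3 genes of smallest p per direction among those past the threshold, or the 2 of smallest p where under 3 passed. Some genes were named beyond the rule, after their values were seen. Among them were Coch, Otos, Stmn1, Stmn3, Des, Chgb, Isl1, Elavl4, Snap25, Mag, Mobp, Kif5b and Pgam2. Replicate numbers were not used to pair the samples in the main fit. Alternatives were the replicate block, array-median centring, quantile normalization, offsets of 16 and 1, eBayes without the trend, a 60th percentile filter or none, each array left out, the mean of a gene's probe sets and the 9-pair rule.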

Additional observations from a re-analysis of the deposited data

How the results depend on the processing

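The counts of 7 genes higher and 2 lower at 36 weeks held under offsets of 1 and 16, quantile normalization, median centring, no filter, the 60th percentile filter, eBayes without the trend, the mean of a gene's probe sets, and with each array left out. By the 9-pair rule with a 1.5-fold minimum, which is a size rule, 1 gene was lower. With median centring 19 genes of the pathway lists were higher, against 29 with the deposited scaling. With each array left out in turn, the log2 difference ranged from 0.90 to 1.20 for Prph probe set 1420256_x_at, from 0.44 to 0.76 for 1449796_at and from -0.44 to -0.19 for Ina probe set 1418178_at, and each of these crossed the threshold when 1 array was missing. The cause was not tested. Nefm ranged from -0.12 to 0.12 with each array left out, and was 0.21 with quantile normalization. With the replicate block, 7 genes were higher and 2 lower and no call of a member changed. Correlations of same-numbered samples' deviations were 0.048, -0.0135 and -0.00304. They showed no sign that the numbers pair the samples, but cannot exclude it. Of counts for single lists, 37 moved by over 1.5 times and 473 did not. The filter was first taken on the mean linear signal and was changed to the mean log2 signal after seeing the data, to match earlier counts for this array table. On the linear signal 2267 probe sets were higher and 2398 lower, and no call of a member differed. Of the 3 dimmer Prph probe sets, 1 passed the test and 2 did not.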
